A study of Mus musculus with 24 samples.

Results

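Transcript levels of 10 genes of Notch signalling were read in sorted cells of the mouse small intestine. They were 3 ligands (Dll1, Dll4, Jag1), 2 receptors (Notch1, Notch2), the receptor-modifying enzyme Lfng, the nuclear factor Rbpj and 3 targets (Hes1, Nrarp, Hey1). They were picked by gene symbol as members of the pathway, with earlier results of these data known, and all 10 were found among the 55421 genes of the count table. Dll4 RNA was higher in the Paneth fraction than in the stem and transit-amplifying (TA) fractions of both genotypes, and Hes1 RNA was lower there. No member differed between Setd1a knockout and control animals in any fraction at an adjusted p below 0.05.

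Notch signalling passes between touching cells, where a ligand of the Delta or Jagged family on one cell binds a Notch receptor on its neighbour. The receptor is cut by an ADAM protease and then by gamma-secretase, and its freed intracellular domain joins RBPJ on DNA. In the intestinal crypt, Paneth cells are known to carry Delta ligands next to stem cells that carry receptors. The target HES1 is known to repress Atoh1, the factor that drives cells to the secretory lineages, so that signal-receiving cells stay in the stem and absorptive lineages.

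The knockout animals were Setd1aFC/FC; Lgr5-eGFP-CreERT2 (hom; BN45, BO25, BO57 and BP04) and the controls were Setd1aFC/+; Lgr5-eGFP-CreERT2 (het; BN44, BO27, BO58 and BP03), 4 mice each. Setd1a encodes a histone H3 lysine 4 methyltransferase. Every animal, controls included, carried the Lgr5-eGFP-CreERT2 allele, with Cre under the stem cell promoter Lgr5, and was given 1 mg of tamoxifen into the abdomen on 3 consecutive days. Cells were taken 4 days after induction and sorted by CD24, EpCAM and CD45 staining into 3 fractions, labelled stem, TA and Paneth, so each animal gave 3 libraries and each of the 6 groups held 4. Control animals would also lose their 1 conditional allele where Cre acted, the share of cells with a deletion was not measured here, and the age of the animals was not given in the sources used here.

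The 24 libraries held 24726282 to 47052856 counts in genes. Levels are given in CPM, counts divided by library size, after TMM scaling over all 24 libraries, a scaling that corrects for a few very abundant transcripts and after which the values of 1 library need not add up to the total that plain CPM gives. It mattered for the Paneth libraries, where the 10 most abundant genes took 18.75 to 57.22% of counts, against 15.7 to 23.74% in stem and 13.05 to 18.1% in TA libraries. The summed level of 10 Paneth markers was 173870 to 932154 CPM in hom and 70549 to 489397 CPM in het Paneth libraries, and 489 to 5252 CPM elsewhere. The 10 stem markers summed to 25637 to 44177 CPM in stem libraries and 3301 to 9444 CPM elsewhere. The Paneth fraction also carried the transcripts of other secretory cells: 10 enteroendocrine markers summed to 3541 to 7901 CPM in hom and 3801 to 6569 CPM in het Paneth libraries, against 7.36 to 271 CPM in the other fractions. Its 10 tuft markers summed to 2190 to 4039 CPM in hom and 2604 to 3665 CPM in het Paneth libraries, against 0.325 to 13.3 CPM in the other fractions, where up to 3 of them were at 0. All 10 markers of both lists were detected in the Paneth libraries of each genotype. Setd1a itself was at 3.73 to 7.31 CPM in the 12 hom libraries and 3.43 to 15.1 CPM in the 12 het libraries and passed no test between genotypes (edgeR adjusted p = 1.00 in the Paneth, 0.98 in the stem and 0.99 in the TA fraction). Counts over a whole gene cannot show the loss of a part of it, so Setd1a checked neither the genotype labels nor the share of deleted cells.

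For the DNA upstream of the members, RefSeq start sites on GRCm38.p6 gave 10 windows for 8 of the 10 members; Hes1 and Hey1 had no entry. The 250 bases before each start were searched on both strands for GTGGGAA, the letters of the RBPJ binding core, and for CACGTG and CAGCTG, letters to which basic helix-loop-helix factors of the HES and HEY kind and of the ATOH1 kind bind. The windows of Dll4, Nrarp and Lfng are shown. Dll4 passed tests between fractions in both genotypes, Lfng passed only in the hom Paneth over TA contrast, and Nrarp is a direct Notch target. Notch1 and Notch2 also passed a test between fractions in a genotype, and their windows are not shown. Capitals mark GTGGGAA and CACGTG.
Dll4, chr2:119325534-119325783, plus strand: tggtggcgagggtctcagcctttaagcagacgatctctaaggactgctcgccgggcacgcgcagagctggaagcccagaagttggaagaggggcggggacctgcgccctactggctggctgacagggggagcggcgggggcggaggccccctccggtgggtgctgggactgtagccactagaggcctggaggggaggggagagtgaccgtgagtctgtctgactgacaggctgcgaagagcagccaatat
Nrarp, chr2:25180508-25180757, plus strand: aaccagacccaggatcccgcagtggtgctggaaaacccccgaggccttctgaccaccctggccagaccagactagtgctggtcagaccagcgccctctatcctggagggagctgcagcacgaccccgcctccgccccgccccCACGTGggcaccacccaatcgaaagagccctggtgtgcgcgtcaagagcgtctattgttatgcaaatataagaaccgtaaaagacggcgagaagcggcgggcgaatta
Lfng, chr5:140607091-140607340, plus strand: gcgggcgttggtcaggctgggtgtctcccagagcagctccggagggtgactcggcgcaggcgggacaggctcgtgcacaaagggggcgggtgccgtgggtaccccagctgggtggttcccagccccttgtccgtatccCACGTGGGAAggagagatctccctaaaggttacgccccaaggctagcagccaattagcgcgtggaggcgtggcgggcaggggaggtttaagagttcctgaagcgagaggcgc
GTGGGAA was found in the Lfng window alone of the members' windows, from -109 to -103 counted from the start site, and it overlapped a CACGTG from -112 to -107. A CACGTG was also found in the Nrarp window from -108 to -103, and CAGCTG was found in Lfng, Jag1 and 1 of the Dll1 windows. None of the 3 motifs was found in the windows of Dll4, Notch1, Notch2 and Rbpj. Among all 32851 windows of the same length, 5.42% held GTGGGAA, 6.02% held CACGTG and 13.0% held CAGCTG, so a match is a description of these letters only.

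Per kilobase of exon, the 10 members spanned a wide range of levels over the 24 libraries. Hes1 averaged 47.7 CPM per kb, Dll1 5.37, Dll4 2.12, Jag1 1.55 and Rbpj 1.40 CPM per kb. Notch2 averaged 0.206, Lfng 0.201, Notch1 0.162, Nrarp 0.139 and Hey1 0.0220 CPM per kb. Both receptors were among the least abundant members. Lfng had 1 to 46 counts in a library, Nrarp 0 to 36 and Hey1 0 to 27.

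**Figure D1:**
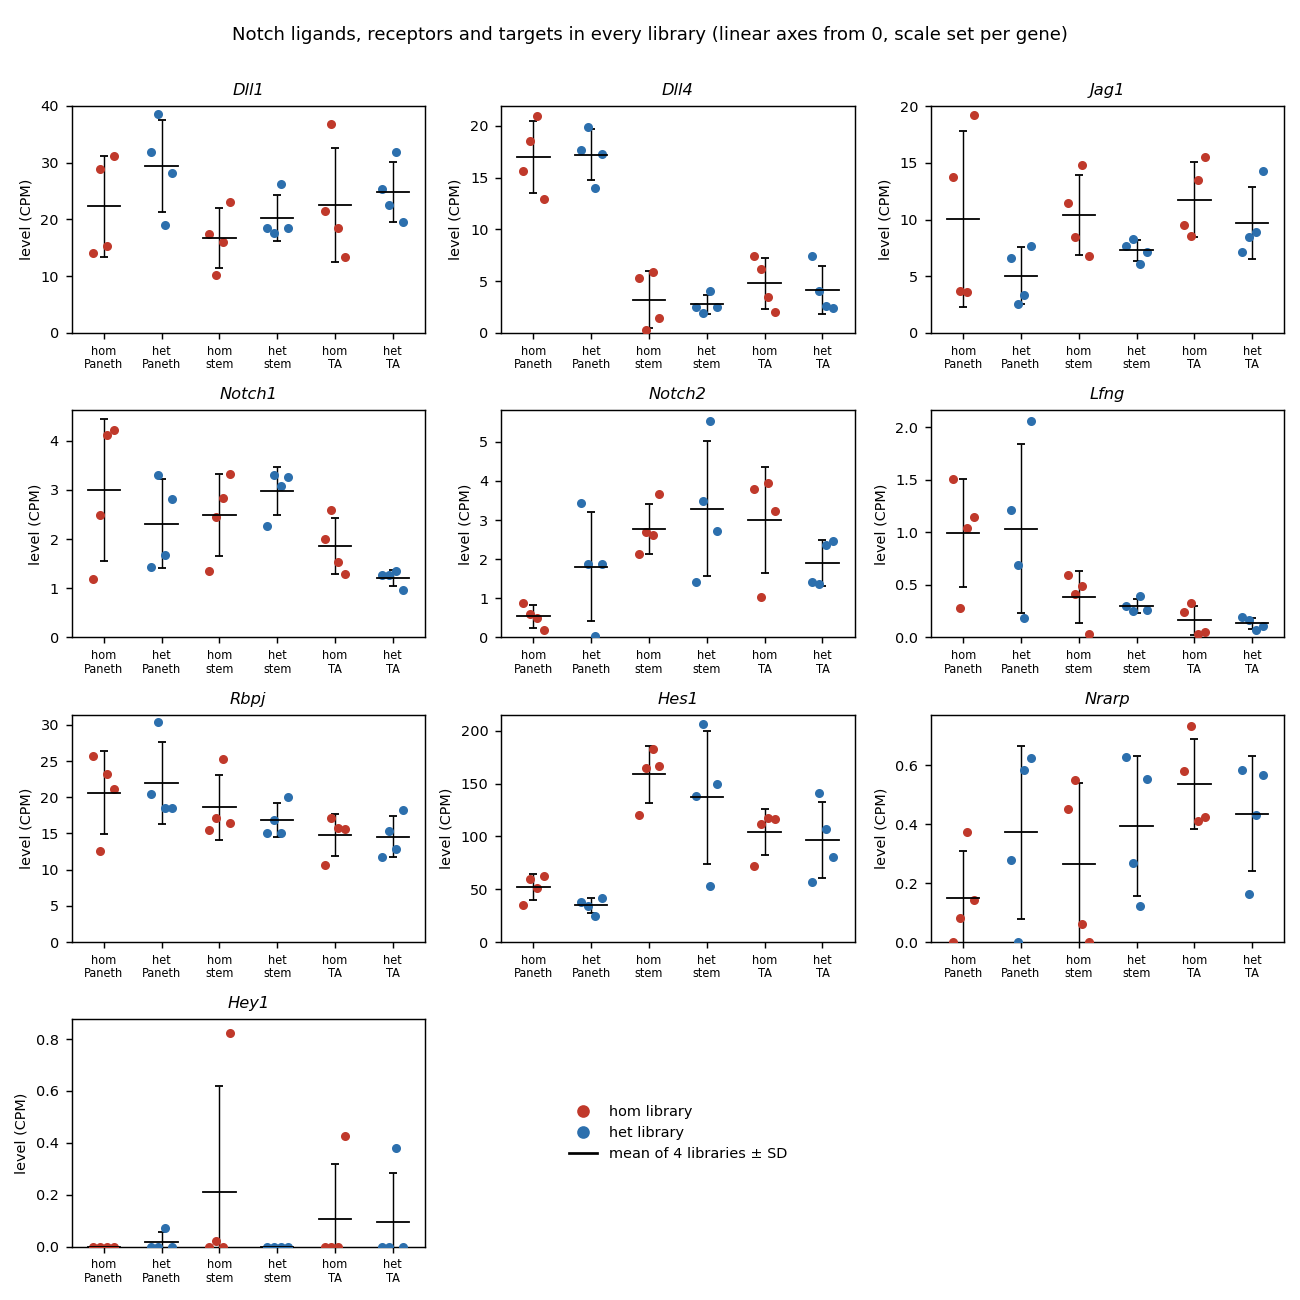
Level of each member in CPM (linear axis from 0, scale set per gene) in every library of the 6 groups, ordered as Paneth, stem and TA with hom (red) left of het (blue); lines and bars are the mean of 4 libraries ± SD, cut at 0. The 8 Paneth libraries sit at 12.9 to 20.9 CPM for Dll4, above the 16 other libraries (0.242 to 7.47 CPM), while for Hes1 they sit at 24.8 to 62.1 CPM, below all but 2 of the others.

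The members were compared first between fractions within a genotype, in edgeR's quasi-likelihood test with Benjamini-Hochberg adjustment over all genes. In hom animals 4 of the 9 members tested passed an adjusted p of 0.05 between the Paneth and TA fractions, 2 higher and 2 lower, where 28.5% of all 16161 genes tested did. Between the Paneth and stem fractions of hom animals 3 of 8 passed, 1 higher and 2 lower, against 30.5% of 16226 genes. In het animals 2 of 8 passed between Paneth and TA, 1 in each direction, against 29.2% of 16177 genes, and 2 of 9 between Paneth and stem, 1 in each direction, against 28.3% of 16230 genes. These shares of members lie near the background, so nothing is read from the counts themselves. The members' median log2 difference in hom animals was 0.00 for Paneth over TA and 0.25 for Paneth over stem, against 0.08 and 0.06 over all genes. In het animals it was 0.10 and -0.05, against 0.08 and 0.05 over all genes.

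Between stem and TA 0 of 9 members passed in hom animals, where 4.61% of 15954 genes did (2.03% higher and 2.58% lower), and DESeq2 called 1 member and 9.85% of all genes. In het animals 1 of 9 passed, higher, where 6.26% of 16182 genes did (2.69% higher and 3.57% lower). At an unadjusted p under 0.05, 4 of 9 members in hom animals and 3 of 8 in het animals differed between Paneth and TA, against 41.3% and 41.7% of genes in hom and het animals. Between Paneth and stem 3 of 8 in hom and 3 of 9 in het animals did, against 42.3% and 40.5%, and between stem and TA 1 of 9 in each genotype, against 17.8% in hom and 20.3% in het animals. Hey1 had too few counts for any of these tests, Nrarp for the test between hom Paneth and stem, and Lfng for that between het Paneth and TA. The fractions come from bulk RNA, in which more cells of a type and more RNA per cell cannot be told apart.

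Dll4, a Delta ligand that activates Notch receptors, had 15.6, 18.5, 20.9 and 12.9 CPM in hom Paneth libraries (BN45, BO25, BO57 and BP04), against 7.47, 6.18, 3.44 and 2.01 CPM in hom TA and 5.27, 0.242, 5.84 and 1.47 CPM in hom stem libraries. It had 17.7, 19.9, 14.0 and 17.3 CPM in het Paneth libraries (BN44, BO27, BO58 and BP03), against 7.46, 4.05, 2.58 and 2.44 CPM in het TA and 2.55, 1.90, 4.03 and 2.54 CPM in het stem libraries. Every Paneth library was above every stem and TA library of either genotype, and this gap was the only break in the order of the 6 group means, whose other neighbours overlapped. Dll4 rose in the Paneth over the TA fraction by 1.85 on the log2 scale in hom animals (95% interval 0.95 to 2.76, 3.61-fold, edgeR adjusted p = 0.0084) and by 2.08 in het animals (1.22 to 2.94, 4.23-fold, edgeR adjusted p = 0.0035). Over the stem fraction it rose by 2.45 in hom (0.80 to 4.09, 5.45-fold, edgeR adjusted p = 0.031) and by 2.68 in het animals (1.96 to 3.40, 6.39-fold, edgeR adjusted p = 3.0e-04).

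The Dll4 difference held in het animals under all 11 alternative settings in both contrasts. In hom animals the call over TA was lost without BO57 (edgeR adjusted p = 0.067), and the call over stem was lost without BN45, without BO57 and without BP04 (0.078, 0.060 and 0.082). It was also lost in hom animals when libraries were scaled by their totals alone (edgeR adjusted p = 0.079 over TA and 0.070 over stem). That scaling moved the median of all genes to -0.58 and -0.57 in these contrasts and to -0.41 and -0.47 in het animals. Under it most calls among all genes were lower, 1071 higher and 3778 lower between hom Paneth and TA, against 2635 higher and 1973 lower with TMM. Between hom Paneth and stem there were 1223 higher and 3616 lower (2819 and 2136 with TMM). In het animals there were 1513 higher and 3470 lower over TA (2813 and 1908 with TMM), and 1497 higher and 3448 lower over stem (2809 and 1791 with TMM).

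Endothelial cells also make Dll4, and the sort used EpCAM, an epithelial surface protein that they are known to lack; its gates are not given in the sources used here. The 10 endothelial markers summed to 14.0 to 35.8 CPM in hom and 21.7 to 40.1 CPM in het Paneth libraries, against 3.99 to 20.7 CPM in hom and 2.63 to 15.0 CPM in het libraries of the other fractions. Most of that sum came from Esam and Tek. Esam, an adhesion protein, averaged 13.5 CPM in hom and 13.9 CPM in het Paneth libraries, against 10.00 and 9.97 CPM in hom and het stem and 2.69 and 1.23 CPM in hom and het TA libraries. Tek, a receptor for angiopoietins, averaged 8.04 CPM in hom and 15.0 CPM in het Paneth libraries, against at most 0.226 CPM in any stem or TA library. Pecam1 averaged 1.38 CPM in hom and 1.55 CPM in het Paneth libraries, Egfl7 1.19 and 1.38 CPM, Plvap 0.763 and 0.751 CPM and Vwf 0.481 and 0.948 CPM. Kdr, Emcn and Cdh5 averaged under 0.05 CPM in the Paneth libraries of either genotype, and Cldn5 was at 0 in all 8. The 10 stromal markers summed to 12.6 to 50.5 CPM in hom and 14.6 to 83.9 CPM in het Paneth libraries. In the other fractions they summed to 0.510 to 10.6 CPM in hom and 0.248 to 13.4 CPM in het libraries. The 10 immune markers summed to 29.3 to 44.9 CPM in hom and 27.0 to 43.0 CPM in het Paneth libraries, against 0.907 to 11.0 and 2.62 to 7.26 CPM elsewhere. The part of endothelial, stromal, immune, enteroendocrine and tuft transcripts in the Dll4 difference was not tested.

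Dll1, the other Delta ligand, showed no such step. It had 14.0, 28.8, 15.4 and 31.1 CPM in hom Paneth libraries, against 21.4, 36.8, 18.4 and 13.4 CPM in hom TA and 17.4, 10.2, 16.1 and 23.0 CPM in hom stem libraries. It had 31.9, 38.6, 19.0 and 28.1 CPM in het Paneth libraries, against 25.3, 22.5, 31.9 and 19.6 CPM in het TA and 18.5, 17.6, 26.2 and 18.4 CPM in het stem libraries. The groups overlapped in every pairing of fractions. The log2 difference between Paneth and TA was 0.00 in hom (95% interval -0.79 to 0.79) and 0.26 in het animals (-0.30 to 0.82), and between Paneth and stem it was 0.45 in hom (-0.27 to 1.17) and 0.57 in het animals (-0.00 to 1.15, edgeR adjusted p = 0.13). Each of these intervals included 0. Without BO58, Dll1 was called higher in the het Paneth than the het stem fraction (log2 0.88, edgeR adjusted p = 0.027). By library totals alone its sign turned to -0.63 in hom and -0.26 in het animals over TA and to -0.13 in hom animals over stem.

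Jag1, a ligand of the Jagged family, had 13.8, 3.67, 3.62 and 19.2 CPM in hom Paneth libraries, against 9.48, 8.56, 13.5 and 15.5 CPM in hom TA and 11.5, 8.46, 14.8 and 6.78 CPM in hom stem libraries. In het animals it had 6.65, 2.53, 3.36 and 7.70 CPM in Paneth libraries, against 7.14, 8.49, 8.92 and 14.3 CPM in TA and 7.63, 8.25, 6.11 and 7.18 CPM in stem libraries. The hom Paneth libraries split into a pair under 4 CPM and a pair above 13 CPM, and the groups overlapped. The log2 difference between Paneth and TA was -0.20 in hom (95% interval -1.39 to 1.00) and -0.92 in het animals (-1.86 to 0.02, edgeR adjusted p = 0.13), and between Paneth and stem -0.01 in hom (-1.23 to 1.22) and -0.49 in het animals (-1.42 to 0.43). Its hom difference over stem changed sign, between -0.65 and 0.47, as each animal was left out. By library totals alone the het Paneth to TA difference passed (log2 -1.48, edgeR adjusted p = 0.018).

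Both receptors were read from few counts, 15 to 159 for Notch1 and 1 to 181 for Notch2 in a library. Notch2 had 0.875, 0.611, 0.499 and 0.180 CPM in hom Paneth libraries, against 3.80, 1.03, 3.94 and 3.23 CPM in hom TA and 2.14, 2.70, 2.61 and 3.67 CPM in hom stem libraries. Every hom Paneth library was below every hom TA and stem library. In het animals it had 3.44, 1.89, 0.0365 and 1.88 CPM in Paneth libraries, against 1.41, 1.36, 2.35 and 2.47 CPM in TA and 1.42, 3.49, 5.53 and 2.71 CPM in stem libraries, and these groups overlapped. Notch2 fell in the hom Paneth fraction by 2.44 on the log2 scale relative to TA (95% interval -3.95 to -0.92, edgeR adjusted p = 0.024) and by 2.31 relative to stem (-3.70 to -0.93, edgeR adjusted p = 0.019). The difference from TA did not pass with the animal as a block (edgeR adjusted p = 0.052) nor without BN45, BO57 or BP04 (0.060, 0.12 and 0.076), and that from stem did not without BO25, BO57 or BP04 (0.071, 0.076 and 0.071). In het animals the log2 differences were -0.05 from TA (-2.01 to 1.91) and -0.82 from stem (-2.81 to 1.18). The difference between the genotypes in this step is the interaction given with the genotype effects.

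Notch1, the receptor with the best known part in crypt stem cell upkeep, had 2.26, 3.29, 3.08 and 3.26 CPM in het stem libraries, against 1.26, 1.26, 1.36 and 0.973 CPM in het TA libraries. All 4 stem values were above all 4 TA values. It was 2.44-fold higher in stem (log2 fold change 1.29, 95% interval 0.57 to 2.00, edgeR adjusted p = 0.044) and was the 1 member that passed between het stem and TA. That call was lost with the animal as a block (edgeR adjusted p = 0.062), with no filter on low counts (0.13), in 1 fit of all 24 libraries (0.092) and without any 1 of the 4 animals (0.081, 0.20, 0.18 and 0.19 without BN44, BO27, BO58 and BP03), with log2 values between 1.14 and 1.42 throughout. In hom animals Notch1 had 1.35, 2.44, 2.83 and 3.33 CPM in stem and 2.01, 2.59, 1.54 and 1.28 CPM in TA libraries, which overlapped (log2 0.41, 95% interval -0.54 to 1.36). In Paneth libraries it ranged over 1.19 to 4.21 CPM in hom and 1.44 to 3.31 CPM in het animals and passed no test against the other fractions, although the het Paneth and het TA values did not overlap (log2 0.94, edgeR adjusted p = 0.19).

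Lfng, a Golgi glycosyltransferase that lengthens sugars on Notch receptors and favours their response to Delta ligands, was at the limit of what these libraries resolve. It had 1.51, 0.285, 1.04 and 1.15 CPM in hom Paneth libraries, against 0.238, 0.324, 0.0315 and 0.0567 CPM in hom TA and 0.593, 0.418, 0.492 and 0.0306 CPM in hom stem libraries. It had 1.21, 0.690, 0.183 and 2.06 CPM in het Paneth libraries, against 0.195, 0.162, 0.0758 and 0.113 CPM in het TA and 0.297, 0.248, 0.397 and 0.261 CPM in het stem libraries. In each genotype 3 of the 4 Paneth libraries lay above all TA and stem libraries, and BO25 in hom and BO58 in het lay among them. Lfng rose in the hom Paneth over the TA fraction by 2.61 on the log2 scale (95% interval 0.69 to 4.53, edgeR adjusted p = 0.046), a call lost with the animal as a block (0.089), by library totals alone (0.14), with no filter on low counts (0.16) and without BN45, BO57 or BP04 (0.14, 0.17 and 0.15). It was not tested between the same fractions of het animals because it missed the count filter there. Over stem the log2 differences were 1.40 in hom (-0.50 to 3.29) and 1.80 in het animals (0.13 to 3.47, edgeR adjusted p = 0.099). The upstream window printed for Lfng is the one with the RBPJ core letters.

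Rbpj, the DNA-binding partner of the Notch intracellular domain, varied little among the groups, with means between 14.5 and 22.0 CPM. It had 25.7, 12.6, 23.2 and 21.1 CPM in hom Paneth libraries, against 10.6, 17.1, 15.8 and 15.6 CPM in hom TA and 15.5, 17.2, 25.3 and 16.4 CPM in hom stem libraries. It had 20.5, 30.4, 18.5 and 18.5 CPM in het Paneth libraries, against 11.8, 15.4, 12.8 and 18.2 CPM in het TA and 15.1, 16.9, 15.1 and 20.1 CPM in het stem libraries. The het Paneth values were all above the het TA values, by a narrow margin, and the other groups overlapped. The log2 difference between Paneth and TA was 0.52 in hom (95% interval -0.08 to 1.12, edgeR adjusted p = 0.18) and 0.62 in het animals (0.06 to 1.17, edgeR adjusted p = 0.091). Between Paneth and stem it was 0.19 in hom (-0.42 to 0.80) and 0.42 in het animals (-0.12 to 0.96). By library totals alone it was -0.18 over TA in hom animals, and -0.48 in hom and -0.10 in het animals over stem.

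Hes1, the transcriptional repressor that is the main Notch target of the crypt, was the most abundant member. It had 34.7, 59.2, 51.2 and 62.1 CPM in hom Paneth libraries, against 72.2, 112, 117 and 116 CPM in hom TA and 120, 165, 183 and 167 CPM in hom stem libraries. It had 38.2, 34.4, 24.8 and 41.7 CPM in het Paneth libraries, against 57.0, 141, 107 and 80.2 CPM in het TA and 138, 206, 53.2 and 150 CPM in het stem libraries. Within each genotype every Paneth library was below every stem and TA library, and in hom animals every TA library was below every stem library. In het animals BO58 had a stem value of 53.2 CPM, lower than all 4 het TA values, so stem and TA overlapped.

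Hes1 fell in the hom Paneth fraction by 0.99 on the log2 scale relative to TA (1.98-fold lower, 95% interval -1.45 to -0.52, edgeR adjusted p = 0.0071) and by 1.59 relative to stem (3.00-fold lower, -2.03 to -1.14, edgeR adjusted p = 4.0e-04). In het animals it fell by 1.45 relative to TA (2.73-fold lower, -2.10 to -0.81, edgeR adjusted p = 0.0049) and by 1.94 relative to stem (3.85-fold lower, -2.75 to -1.13, edgeR adjusted p = 0.0033). These calls held under all 11 alternatives in 3 of the 4 contrasts, and the exception was the hom contrast with TA without BO57 (edgeR adjusted p = 0.055). Between stem and TA, Hes1 differed by 0.60 in hom animals (95% interval 0.16 to 1.03, edgeR adjusted p = 0.13) and by 0.50 in het animals (-0.37 to 1.38, edgeR adjusted p = 0.53). In hom animals Hes1 was the 1 member with an unadjusted p under 0.05 between stem and TA, and it passed there with the animal as a block (edgeR adjusted p = 0.010) and in DESeq2 (adjusted p = 0.039). The proliferation markers, which mark dividing crypt cells, summed to 394 to 804 CPM in Paneth libraries against 1601 to 2191 CPM in the stem and TA libraries, a shift in the same direction as Hes1 whose part in it was not tested.

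Nrarp, a Notch target whose product feeds back on the receptor complex, ranged over 0 to 0.374 CPM in hom Paneth, 0 to 0.550 CPM in hom stem and 0.410 to 0.735 CPM in hom TA libraries. In het animals it ranged over 0 to 0.626 CPM in Paneth, 0.122 to 0.630 CPM in stem and 0.162 to 0.586 CPM in TA libraries. Only hom Paneth and hom TA libraries did not overlap (log2 -1.75, 95% interval -3.56 to 0.07, edgeR adjusted p = 0.13). Hey1, a repressor related to Hes1 that Notch induces in many tissues, was at 0 counts in 19 of 24 libraries and held 60 counts in all. A count of 0 allows up to 3 counts in a library, here 0.0638 to 0.121 CPM by library totals alone. On the TMM scale of the levels the limit of a library is higher where its TMM factor is under 1. That factor was 0.448 in hom Paneth BN45. These limits cover counting error only. Hey1 was too low for a test in every comparison.

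**Figure D2:**
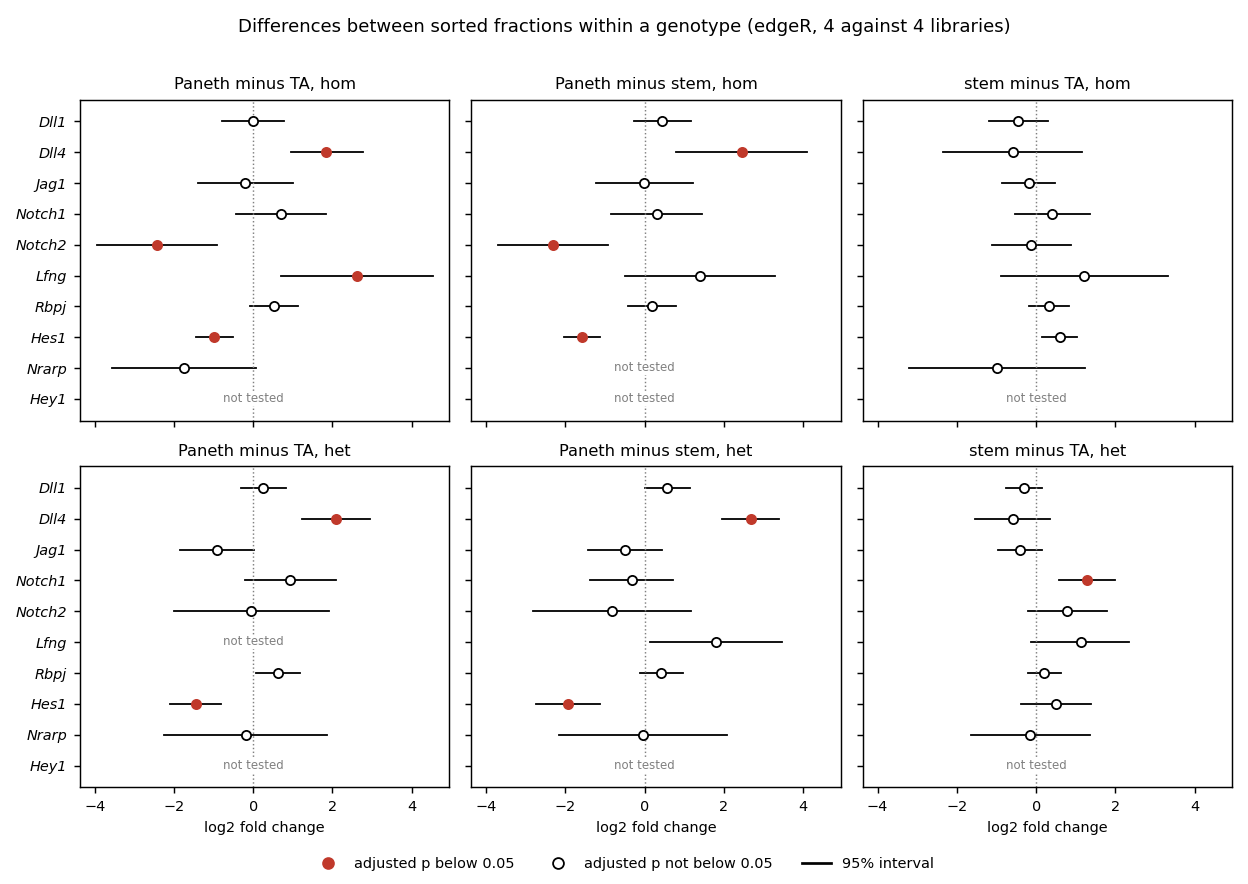
log2 fold change of each member between sorted fractions (x axis; positive means higher in the fraction named first) with its 95% interval, in hom animals (upper row) and het animals (lower row); filled red points passed an adjusted p of 0.05 in edgeR. Dll4 lies right of 0 and Hes1 left of 0 in all 4 contrasts of the Paneth fraction, between 1.85 and 2.68 and between -1.94 and -0.99.

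The genotype comparison set hom against het libraries within a fraction. The share of cells with a deletion was not measured in any fraction. The comparison is therefore of animals by genotype and not of cells by loss of Setd1a. In edgeR 0 of 8 members passed in the Paneth, 0 of 9 in the stem and 0 of 8 in the TA fraction, where 0%, 0.0125% and 0% of 16108, 16056 and 15925 genes did. At an unadjusted p under 0.05 there were 1, 0 and 0 members, against 2.28%, 6.73% and 5.92% of all genes, and DESeq2 called 0 members in each fraction, where it called 0.0372%, 1.16% and 0.440% of all genes. The count of 0 members lies beside a share of all genes near 0 in edgeR, so nothing is read from it. Their median log2 difference was -0.04, 0.14 and 0.25 in the Paneth, stem and TA fractions, against -0.00, 0.00 and 0.00 over all genes.

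The member with the unadjusted p under 0.05 was Hes1 in the Paneth fraction. Its levels there were the 34.7 to 62.1 CPM of hom and 24.8 to 41.7 CPM of het libraries given above, which overlapped through hom BN45. The means were 51.8 ± 12.3 CPM in hom and 34.8 ± 7.30 CPM in het libraries (SD, n = 4 each), a log2 difference of 0.56 with a 95% interval of 0.04 to 1.09 (unadjusted p = 0.038 and edgeR adjusted p = 1.00). In the stem fraction Hes1 averaged 159 ± 27.4 CPM in hom and 137 ± 63.3 CPM in het libraries (log2 0.21, 95% interval -0.55 to 0.96), and in TA 104 ± 21.5 CPM in hom and 96.3 ± 36.2 CPM in het libraries (log2 0.12, -0.48 to 0.73).

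Among the ligands, Dll4 averaged 17.0 ± 3.49 CPM in hom and 17.2 ± 2.44 CPM in het Paneth libraries (SD, n = 4 each). That difference of -0.03 on the log2 scale had the narrowest interval of any ligand effect in that fraction, -0.58 to 0.53. Jag1 averaged 10.1 ± 7.73 CPM in hom and 5.06 ± 2.50 CPM in het Paneth libraries (log2 0.98, 95% interval -0.38 to 2.35), and 10.4 ± 3.54 CPM in hom and 7.29 ± 0.902 CPM in het stem libraries (log2 0.50, -0.10 to 1.11). In TA libraries it averaged 11.8 ± 3.30 CPM in hom and 9.71 ± 3.14 CPM in het animals (log2 0.29, -0.33 to 0.91). The point estimate for Jag1 was above 0 in all 3 fractions, and each interval included 0. Dll1 had estimates below 0 in all 3, at -0.41 in the Paneth (-1.11 to 0.30), -0.29 in the stem (-0.86 to 0.28) and -0.13 in the TA fraction (-0.79 to 0.53). The 3 fractions come from the same animals, so these signs are not independent.

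The receptors had wide intervals. Notch2 averaged 0.541 ± 0.288 CPM in hom and 1.81 ± 1.39 CPM in het Paneth libraries (log2 -1.75, 95% interval -4.03 to 0.53), where het BO58 held 1 count of Notch2. It averaged 3.00 ± 1.35 CPM in hom and 1.90 ± 0.593 CPM in het TA libraries (log2 0.67, -0.35 to 1.68). The genotype effect on Notch2 was 2.42 higher in TA than in the Paneth fraction on the log2 scale (95% interval 0.33 to 4.51, unadjusted p = 0.025, edgeR adjusted p = 0.97), so the step that passed in hom animals alone was not shown to differ between the genotypes. Notch1 averaged 3.00 ± 1.44 CPM in hom and 2.31 ± 0.896 CPM in het Paneth libraries, 2.49 ± 0.840 CPM in hom and 2.97 ± 0.486 CPM in het stem libraries, and 1.85 ± 0.575 CPM in hom and 1.21 ± 0.169 CPM in het TA libraries. Its log2 differences were 0.37, -0.27 and 0.62, with the interval nearest to excluding 0 in TA (-0.26 to 1.49).

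Rbpj averaged 20.6 ± 5.68 CPM in hom and 22.0 ± 5.73 CPM in het Paneth, 18.6 ± 4.52 CPM in hom and 16.8 ± 2.38 CPM in het stem, and 14.8 ± 2.88 CPM in hom and 14.5 ± 2.86 CPM in het TA libraries (SD, n = 4 each). Its log2 differences of -0.09, 0.14 and 0.03 lay within intervals that stayed between -0.73 and 0.61. Lfng had too few counts for a test in TA, and Nrarp in the Paneth fraction. Where they were tested their intervals were wide, from -1.90 to 1.78 for Lfng in the Paneth fraction and from -2.91 to 1.82 for Nrarp in the stem fraction. Hey1 counts came from 5 libraries, hom stem BP04 (27 counts) and BO25 (1 count), hom TA BP04 (15 counts), het TA BO58 (15 counts) and het Paneth BO58 (2 counts).

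**Figure D3:**
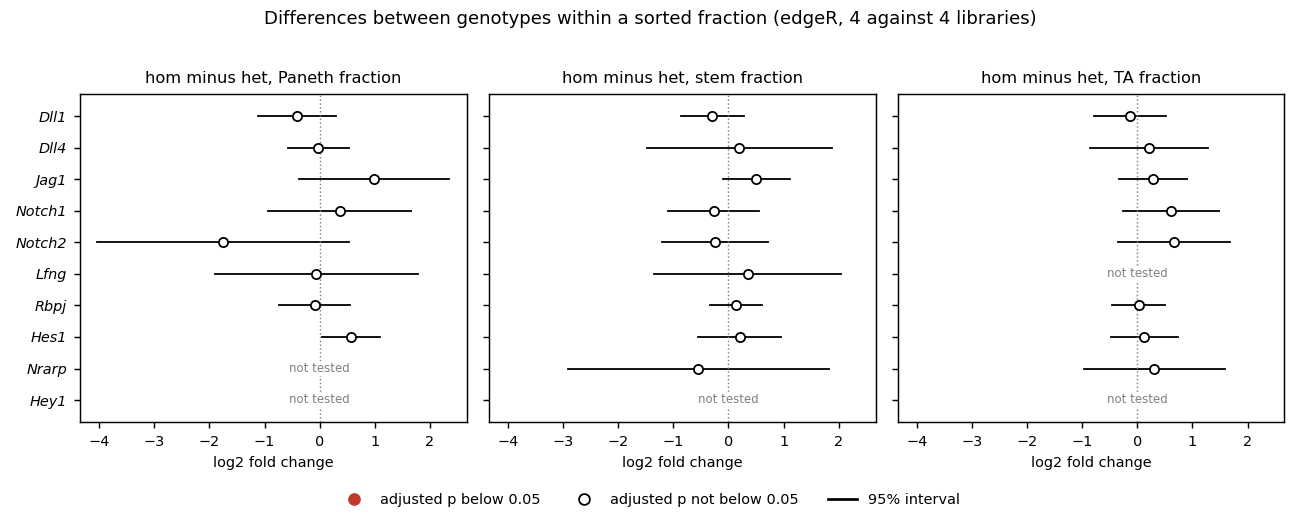
log2 fold change of each member between genotypes (x axis; positive means higher in hom) with its 95% interval in the Paneth, stem and TA fractions, 4 hom against 4 het libraries each. All points are open, since none passed an adjusted p of 0.05 in edgeR, and the interval that excludes 0 is that of Hes1 in the Paneth fraction (0.04 to 1.09).

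Whether the genotype effect differed between fractions was tested as an interaction in 1 fit of all 24 libraries. That fit held no term for the animal, although each animal gave a library of every fraction. With the animal as a block 0 members passed in each interaction too. Of 9 members tested, 0 passed for the TA minus the Paneth fraction, 0 for stem minus Paneth and 0 for stem minus TA in edgeR, where 0.00516%, 0% and 0% of 19396 genes did. At an unadjusted p under 0.05 there were 1 (Notch2), 0 and 0 members, against 4.98%, 6.28% and 3.95% of all genes, and DESeq2 called 0 in each, against 0.119%, 0.247% and 0.0722% of all genes.

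The rest of the pathway was followed in 62 further genes, grouped as receptors, ligands, ligand handling, receptor maturation, cleavage and turnover, nuclear partners, Hes and Hey genes, and secretory genes that Notch represses. In the tests with Paneth libraries, 5 to 7 of the genes tested were too low for the test of stem against TA (Dll3, Dner, Neurl1a, Dtx3 and Tle2 in each, and Notch3, Mfng, Maml2 or Hes2 in some). They are left out of the counts and medians here, except in those by library totals. The shares and medians of all genes leave out no such genes, so they were not filtered alike. Of the others, 13 of 45 rose and 0 fell between Paneth and TA in hom animals, and 13 of 44 rose and 0 fell in het animals, where 16.3% and 17.4% of all genes were higher and 12.2% and 11.8% lower. Between Paneth and stem 14 of 44 rose and 2 fell in hom animals and 14 of 44 rose and 0 fell in het animals, against 17.4% and 17.3% higher and 13.2% and 11.0% lower. Their median log2 difference was 0.41 and 0.59 over TA and 0.63 and 0.75 over stem in hom and het animals, against 0.08, 0.08, 0.06 and 0.05 over all genes. By library totals alone, over all 50 or 51 tested, 8 rose and 2 fell over TA in hom and 10 rose and 1 fell in het animals, where 6.63% and 9.35% of all genes were higher and 23.4% and 21.5% lower. Over stem 10 rose and 4 fell in hom and 11 rose and 5 fell in het animals, against 7.54% and 9.22% higher and 22.3% and 21.2% lower. The 2 that fell between hom Paneth and stem were Poglut1 (log2 -1.14, edgeR adjusted p = 0.0044) and Dtx4 (-0.85, edgeR adjusted p = 0.034).

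Of 5 other ligands, Dlk1 and Dlk2 had too few counts for a test. Dner and Dll3 entered the tests through their Paneth libraries alone, so their levels are given with no test. Dner, an atypical ligand known mainly from neurons, had 11.0, 13.7, 17.1 and 14.1 CPM in hom Paneth libraries, against 0.132, 1.24, 0.0315 and 0.255 CPM in hom TA libraries, and 0 counts in all 4 hom stem libraries. With a count of 0 taken as 3 counts in each library, the mean of the hom Paneth libraries was 174-fold that of the hom stem libraries. This floor covers counting error in the stem libraries only, and the ratio of means leaves out the spread of the Paneth libraries. In het animals Dner had 6.84, 9.20, 29.2 and 19.1 CPM in Paneth libraries, against 0 to 1.43 CPM in TA and 0 to 0.647 CPM in stem libraries. Dll3 is a Delta relative known to inhibit the pathway inside the cell that makes it rather than to activate receptors. It had 3.82, 6.32, 0.374 and 2.77 CPM in hom Paneth and 0 counts in all hom stem libraries. By the same floor its hom Paneth mean was 41.4-fold that of hom stem, with BO57 (0.374 CPM) far below that mean. Its het Paneth values were 1.77, 2.07, 0.987 and 1.70 CPM, against 1 count in all 4 het TA libraries together. Jag2, a Jagged ligand, averaged 7.16 ± 3.90 CPM in hom and 5.43 ± 1.49 CPM in het Paneth libraries (SD, n = 4 each), against at most 1.28 CPM in any stem or TA library. It rose over TA by 4.48 in hom and 2.92 in het animals on the log2 scale (edgeR adjusted p = 0.013 and 0.0039) and over stem by 3.76 and 3.88 (0.026 and 0.040). Jag2 and Adam10 were named after their values were seen.

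Among genes that handle ligand and receptor, Neurl1a, a ubiquitin ligase whose fly relative Neuralized acts on Notch ligands, averaged 14.6 ± 4.46 CPM in hom and 13.6 ± 5.71 CPM in het Paneth libraries and was at most 0.374 CPM elsewhere (SD, n = 4 each). It too entered the tests through its Paneth libraries alone and is given with no test: the 4 libraries of the hom TA, hom stem and het stem groups held 21, 17 and 20 counts of it in all, and those of het TA 1 count. Aph1b, a subunit of gamma-secretase, averaged 11.6 ± 4.33 CPM in het Paneth libraries, against 1.82 ± 0.731 CPM in het TA and 1.37 ± 0.582 CPM in het stem libraries (log2 2.69 and 3.11, edgeR adjusted p = 0.0021 and 7.6e-04). In hom animals it averaged 7.55 ± 4.34 CPM in Paneth, 1.24 ± 1.02 CPM in TA and 2.54 ± 0.896 CPM in stem libraries. There the groups overlapped, since Paneth BO25 (2.16 CPM) lay within the hom TA and hom stem ranges. Adam10, a protease that cleaves the receptor outside the membrane, was present in every fraction and averaged 69.1 to 98.5 CPM in the 6 groups. Poglut1, a glycosyltransferase that sugars the receptor's EGF repeats, rose in the hom stem over the hom TA fraction by 0.92 (SE 0.22, edgeR adjusted p = 0.043). That call was lost by library totals alone.

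Among the 15 nuclear partners tested in each comparison that also passed the filter between stem and TA, 8 rose between Paneth and TA in hom and 9 in het animals, against 16.3% and 17.4% of all genes. Between Paneth and stem 8 of 15 rose in hom and 6 of 15 in het animals, against 17.4% and 17.3%, and 0 fell in any of these comparisons. Here too the shares of all genes leave out no genes by that filter. By library totals alone, over all 16 or 17 tested, 2 rose and 1 fell over TA in hom and 4 rose and 0 fell in het animals, where 6.63% and 9.35% of all genes were higher. Over stem 1 rose and 1 fell in hom and 4 rose and 1 fell in het animals, against 7.54% and 9.22% higher. Tle3, a Groucho corepressor that works with HES proteins, had 19.7, 16.3, 21.4 and 20.3 CPM in hom Paneth libraries, against 3.67, 6.32, 2.18 and 2.27 CPM in hom TA libraries. It rose there by 2.45 on the log2 scale (SE 0.37, edgeR adjusted p = 0.0014), and in het animals by 2.52 (SE 0.29, edgeR adjusted p = 3.0e-04). The mastermind coactivator Maml3 rose by 1.75 over hom TA (edgeR adjusted p = 0.0028), and the corepressor Spen by 1.30 (edgeR adjusted p = 0.0074). The acetyltransferases Ep300 and Kat2b rose over het TA by 1.70 and 1.86 (edgeR adjusted p = 0.0014 and 8.3e-04). Tle2, another Groucho gene, averaged 4.73 ± 1.54 CPM in hom and 4.01 ± 0.156 CPM in het Paneth libraries (SD, n = 4 each), against at most 1.17 CPM in any stem or TA library, and is given with no test for the same reason as Neurl1a.

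Atoh1 and Spdef, secretory factors that Notch signalling is known to hold down, followed another pattern than Dll4: both were high in the Paneth and TA fractions and low in stem. Atoh1 had 25.0 to 68.5 CPM in hom Paneth and 10.9 to 51.2 CPM in hom TA libraries, against 2.64 to 8.70 CPM in hom stem libraries. Spdef had 12.0 to 37.4 CPM in hom Paneth and 5.84 to 22.2 CPM in hom TA libraries, against 0.0220 to 1.05 CPM in hom stem libraries. Over stem, both rose in the Paneth fraction, Atoh1 by 3.05 in hom and 3.33 in het animals (edgeR adjusted p = 0.0010 and 0.0046) and Spdef by 5.20 and 3.93 (0.0012 and 0.0011). Atoh1 fell in stem relative to TA by 2.63 in hom and 2.83 in het animals on the log2 scale (edgeR adjusted p = 0.019 and 0.0066) and Spdef by 4.32 and 3.77 (0.015 and 0.0021). In the same contrast Hes1 differed by 0.60 in hom and 0.50 in het animals, higher in stem, without passing. Goblet markers summed to 5123 to 21658 CPM in hom and 2238 to 14288 CPM in het Paneth libraries and to 5563 to 13138 CPM in hom and 6685 to 16600 CPM in het TA libraries, against 120 to 1129 CPM in stem libraries, and their part in the Atoh1 and Spdef differences was not tested. Dtx4 and Tle3 rose in het stem over het TA by 0.91 and 1.33 (edgeR adjusted p = 0.011 and 0.015). Between genotypes 0 of 52, 0 of 44 and 0 of 45 other pathway genes passed in the Paneth, stem and TA fractions in edgeR and 0 in DESeq2, where 0%, 0.0125% and 0% of all genes passed in edgeR and 0.0372%, 1.16% and 0.440% in DESeq2. At an unadjusted p under 0.05 in edgeR there were 3, 3 and 1, against 2.28%, 6.73% and 5.92% of all genes. The genes nearest to passing were Itch and Notch3 in the Paneth fraction (log2 -0.59 and 1.88, edgeR adjusted p = 1.00 for both), Crebbp and Poglut1 in the stem fraction (-0.43 and 0.50, edgeR adjusted p = 0.61 and 0.63) and Mib1 and Gfi1 in the TA fraction (0.46 and 0.65, edgeR adjusted p = 0.83 and 0.90).

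**Figure D4:**
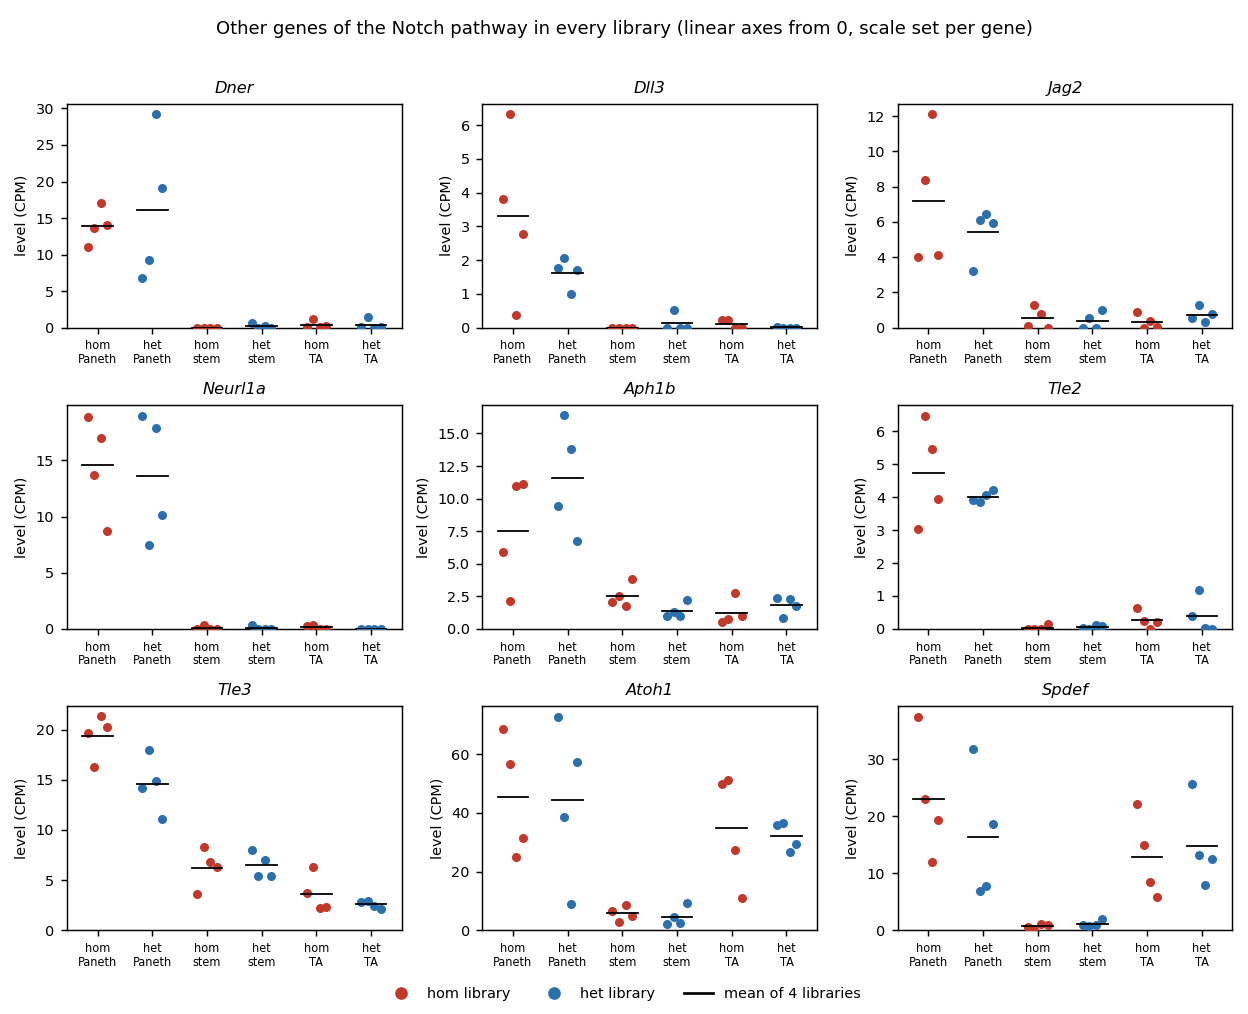
Level in CPM (linear axis from 0, scale set per gene) of 9 other pathway genes in every library, grouped as Paneth, stem and TA with hom (red) left of het (blue); lines are means of 4 libraries. Dner, Dll3, Jag2, Neurl1a and Tle2 are at most 1.43 CPM outside the Paneth fraction, while Atoh1 and Spdef are also high in TA libraries (26.5 to 36.5 and 7.96 to 25.6 CPM in het) and low in stem libraries.

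To place the members beside other genes, up to 3 genes with the most alike pattern over the 24 libraries were taken by Pearson's r of log2(CPM + 1) among 9252 genes of at least 5 CPM on average, as a description in which depth, fraction and animal are shared. Dll4 was most like Kit (r = 0.93), F8a (0.92) and Ptprn2 (0.92). Kit, a receptor tyrosine kinase, averaged 102 CPM in hom and 88.3 CPM in het Paneth libraries, against 3.43 to 10.6 CPM in the other groups. Hes1 was most like Alkbh1 (r = 0.87), Cftr (0.86) and Thumpd1 (0.86). Cftr, the chloride channel of crypt cells, averaged 82.5 CPM in hom and 81.4 CPM in het Paneth libraries, against 287 and 239 CPM in hom and het stem libraries and 189 and 166 CPM in hom and het TA libraries. For the members with flatter patterns the likeness was lower, with Erbin (r = 0.77), Afdn (0.77) and Bbx (0.76) for Rbpj, Nup50 (0.76) and Morc4 (0.68) for Jag1, and Bcl2l13 (0.71), Atxn7l3b (0.70) and Ugcg (0.68) for Dll1.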

How the data were processed

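Sorted stem, TA and Paneth cells of 8 mice gave 24 RNA libraries in 6 groups of 4. The deposited values are counts of fragments per gene, made by the authors with featureCounts 2.0.1, unstranded, with a minimum mapping quality of 1, on Ensembl 98 gene models of mm10, per the file headers. Base calls came from bcl2fastq 2.20.0, per the submitters' processing notes; the aligner's version was not given in the sources used here. The table was split into 55421 genes and 92 ERCC spike-in rows (at most 6 counts in a library), which were left out. A symbol was found for 55154 gene IDs and not for 267. Since counting ignored strand, reads of a gene and of an antisense partner cannot be told apart.

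Genes were tested with edgeR 4.0.16 (TMM scaling, filterByExpr, quasi-likelihood F-test, Benjamini-Hochberg adjustment over all genes tested, threshold 0.05), each comparison in its own 8 libraries and interactions in all 24, in R 4.3.3. Intervals are 95% intervals of the fit. Alternatives were DESeq2 1.42.0, other scalings and filters, a fit of all 24 libraries, the animal as a block and leaving out each animal. The code was tested on simulated data. Replicates are separate animals. Same-animal libraries of different fractions pair by design (correlation of their deviations from the group means -0.03 to 0.319). The main fraction and interaction tests leave this pairing out, and the animal as a block is the alternative. Deviations of hom and het libraries at the same place in ID order correlated at -0.002 to 0.303, against -0.26 to 0.063 for other pairs. The labels do not say what these animals share, and the main genotype tests leave this order out. Members and gene lists were chosen with earlier results of these data known. All 10 members are named, with up to 6 of the 62 other pathway genes per comparison by smallest p, or 2 where none passed; some genes that the rules would name are not reported here. Upstream sequences are from RefSeq on GRCm38.p6.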

Additional observations from a re-analysis of the deposited data

Results flagged for a closer look

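In 58 groups of 4 libraries 7 held a value that stood apart, by Dixon's test of the gap to the nearest of the others at the 95% level. Chance gives such a gap in about 5% of groups of normally spread values. Counts near 0 are not spread so, and the 7 are not read against that share. Dll1 was 26.2 CPM in het stem BO58, against 17.6 to 18.5 CPM in the other het stem libraries. Hes1 was 72.2 CPM in hom TA BN45, against 112 to 117 CPM in the other hom TA libraries. Rbpj was 25.3 CPM in hom stem BO57, against 15.5 to 17.2 CPM in the other hom stem libraries. The remaining 4 were Hey1 values. Where the other libraries of a group held 0, any count above 0 stands apart, so such a flag was fixed in advance. Hey1 was 0.825 CPM (27 counts) in hom stem BP04, where the others held at most 0.0220 CPM, and 0.425 CPM (15 counts) in hom TA BP04, where the others held 0. It was 0.379 CPM (15 counts) in het TA BO58 and 0.0731 CPM (2 counts) in het Paneth BO58, where the others of those groups held 0.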

How the results depend on the processing

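The cause of a change was not tested. Of the counts of members that passed, 72 were within 1.5 times the main count and 9 were not in the other settings, and 63 and 9 with 1 animal left out. A count of 0 beside a main count of 0 is held as within. The main count was 0 in every genotype comparison, in every interaction and between hom stem and TA. With 1 animal left out it stayed at 0 in all of these, so the tally does not measure how stable the calls are. Between het stem and TA 1 member passed, but 0 did with no filter, with a mean of at least 5 CPM (where Notch1 was not tested), with the replicate block, in 1 fit of all 24 libraries, and 0 to 0 without 1 replicate. Between hom Paneth and TA 4 passed, but 2 did by library totals, with a mean of at least 5 CPM and with the replicate block, and 0 to 4 without 1 replicate. Between hom Paneth and stem 3 passed, and 1 to 2 without 1 replicate. Between hom stem and TA 0 passed, but 1 did in DESeq2 and with the replicate block. The block by animal changed no other member's call between fractions, and the block by ID order changed none between genotypes. Among all other pathway genes tested, the block by animal moved the number higher in Paneth over TA from 18 to 17 in hom and from 17 to 16 in het animals. Over stem that number went from 19 to 16 in hom and from 18 to 17 in het animals. The number lower stayed at 0 over TA in each genotype and at 2 over stem in hom, and went from 0 to 1 over stem in het animals. Over all genes, edgeR and DESeq2 called 0 and 6 between genotypes in the Paneth, 2 and 187 in the stem and 0 and 70 in the TA fraction, and 736 and 1572 between hom and 1013 and 1966 between het stem and TA. The deviations of same-ordered hom and het libraries correlated at -0.002 to 0.303, against -0.26 to 0.063 for the other pairs of hom and het libraries.

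Of the members' log2 effects, 15 turned sign in the other settings. With the replicate block these were Dll4 in stem hom over het (-0.43), Lfng in Paneth hom over het (0.09) and Notch2 in hom stem over TA (0.00). By library totals they were Dll1 in Paneth over TA (-0.63 in hom, -0.26 in het), Rbpj in Paneth over TA in hom (-0.18) and over stem (-0.48 in hom, -0.10 in het), and Notch1 (-0.20) and Dll1 (-0.13) in hom Paneth over stem. Dll1 in hom Paneth over TA was -0.03 with no filter and -0.01 in 1 fit of all 24 libraries. Jag1 in hom Paneth over stem was 0.01 with DESeq2 size factors, 0.06 with a mean of at least 5 CPM and 0.01 in DESeq2. Without 1 replicate, hom over het in stem ranged from -0.50 to 0.12 for Notch2, -0.26 to 0.59 for Dll4, -0.06 to 0.48 for Hes1 and -0.04 to 0.23 for Rbpj. In TA it ranged from -0.48 to 0.06 for Dll1, -0.08 to 0.66 for Dll4, -0.07 to 0.37 for Hes1 and -0.06 to 0.16 for Rbpj. In Paneth it ranged from -0.13 to 0.09 for Dll4, -0.25 to 0.10 for Rbpj and -0.41 to 0.50 for Lfng. In het animals Paneth over TA ranged from -0.70 to 0.48 for Notch2 and -0.55 to 0.09 for Nrarp, and Nrarp from -0.66 to 0.38 in Paneth over stem and -0.30 to 0.14 in stem over TA. In hom animals Paneth over TA ranged from -0.36 to 0.20 for Dll1 and -0.52 to 0.14 for Jag1, Paneth over stem from -0.65 to 0.47 for Jag1 and -0.04 to 0.35 for Rbpj, and stem over TA from -0.39 to 0.13 for Notch2, -0.83 to 0.08 for Dll1 and -0.33 to 0.12 for Jag1. By library totals 7 of 60 mean levels moved by over 1 SD. Counts under 50 in a library limit Lfng, Nrarp and Hey1 throughout, and other members in some groups. Notch2 had 5 to 15 counts in hom Paneth and 1 to 74 in het Paneth libraries. Notch1 had 15 to 117 counts in hom Paneth libraries, and Dll4 had 11 to 222 in hom stem libraries.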
